A study of Mus musculus with 8 samples.

Results

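Glypicans and syndecans, the main families of heparan sulfate proteoglycans on the cell surface, were examined in SV-LECs, a mouse lymphatic endothelial line that was isolated from mesenteric adventitia and immortalized with SV40. The members are the genes whose symbol is Gpc1 to Gpc6 or Sdc1 to Sdc4, which makes 10 of 55471 genes in the count table, each with a single row. The cells were left untreated or were given 10 ng/ml TGFβ1 for 72 h, and RNA from 4 samples per group was sequenced from stranded poly(A) libraries. The study describes the 4 samples as technical replicates of this line, so errors and FDRs cover the variation between libraries and not that between independent cultures. The 10 genes were chosen by family and with their fold changes after TGFβ1 in these libraries in view, and their own differences between the groups are therefore described without p-values.

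Heparan sulfate proteoglycans carry long sulfated sugar chains on a core protein, and the chains bind growth factors, morphogens, chemokines and matrix proteins. Glypicans are held in the membrane by a lipid anchor and are known as modulators of WNT, hedgehog, BMP and FGF signals. Syndecans span the membrane and act as co-receptors with integrins and growth factor receptors. In lymphatic endothelium, heparan sulfate is known to hold VEGFC and the chemokine CCL21 at the cell surface.

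TGFβ1-treated SV-LECs contained far less Gpc3 RNA and more Gpc4 RNA than untreated cells, so that the leading glypican was Gpc3 in untreated and Gpc4 in treated libraries. Among the syndecans, Sdc1 and Sdc3 were higher and Sdc2 and Sdc4 slightly lower after TGFβ1. Of the 10 genes, 9 had enough counts to be tested, and 5 were called higher and 4 lower with the likelihood ratio test of edgeR and an FDR threshold of 0.05. Across all 13818 genes tested, 75.6% passed the same threshold, 37.6% as higher and 38.0% as lower. In all 9 genes the libraries of one group lay entirely above those of the other, as they did in 69.8% of the genes tested. At an FDR under 0.05, 17.5% of all genes tested had an absolute log2 fold change of at least 1. Of the 9 members, 4 met both conditions (Gpc3, Gpc6, Sdc1 and Sdc3). The absolute log2 fold change was above 3 at that FDR in Gpc3 and Sdc3, against 2.03% of all genes tested. The median log2 fold change was 0.57 over the 9 genes, which is the value of Gpc2 alone, and -0.0064 over all genes tested.

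**Figure D1:**
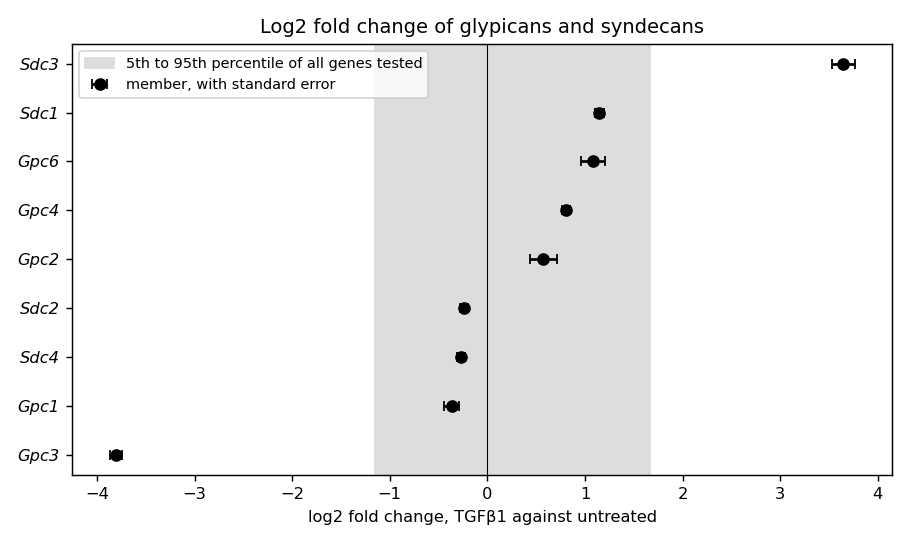
The log2 fold change of TGFβ1-treated against untreated SV-LECs is plotted for the 9 tested glypican and syndecan genes, with bars for the standard error and a grey band from the 5th to the 95th percentile of all genes tested (-1.15 to 1.66). Gpc3 at -3.81 and Sdc3 at 3.65 lie outside the band and the other 7 genes lie inside it.

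Library totals were between 19182616 and 26077972 counts in untreated and between 18952504 and 26386941 in TGFβ1-treated libraries, and a count of 3 corresponded to 0.113 to 0.162 CPM, the unit of counts scaled to the normalized library size. Untreated and treated libraries were separated along a principal component that carried 88.8% of the variance. Of the markers of the labelled cell type, only Pdpn, Flt4 and Kdr were above 1 CPM. Of 4 lymphatic endothelial markers, Pdpn (342 ± 19.5 CPM in untreated and 313 ± 5.25 in treated libraries, SD, n = 4) and Flt4 (21.6 ± 1.23 and 29.3 ± 0.41 CPM) were expressed, while Prox1 had at most 2 and Lyve1 at most 3 counts in any library. Among 5 general endothelial markers, Kdr was at 11.6 ± 0.55 and 22.1 ± 0.76 CPM, Tek was under 1 CPM, Pecam1 had at most 5 and Cdh5 at most 2 counts, and Tie1 had none. For the lymphatic markers the summed CPM, mostly from Pdpn, lay between 344 and 381 in untreated and between 337 and 348 in treated libraries. For the endothelial ones, mostly from Kdr, it lay between 11.5 and 13.1 and between 22.1 and 23.9. The 5 markers of fibroblasts and mural cells summed to between 204 and 229 CPM in untreated and between 144 and 162 in treated libraries. Of the 4 that were tested, only Pdgfra, the receptor that marks many fibroblasts, fell, from 160 ± 10.5 to 57.8 ± 3.91 CPM. The other 3 rose, Pdgfrb from 44.7 ± 1.51 to 69.3 ± 2.27, Cspg4 from 12.8 ± 2.08 to 23.0 ± 2.20 and Myh11 from 0.24 ± 0.17 to 0.88 ± 0.25 CPM, and the median log2 fold change was 0.74. Rgs5 had 0 counts in untreated and 2 to 7 in treated libraries. The 3 blood markers went from at most 7.82 to at least 14.9 CPM in sum, through Cd68, with Ptprc and Cd3e at 0 in every untreated library. The 4 epithelial markers summed to between 0.304 and 1.14 CPM in untreated and between 2.36 and 4.11 in treated libraries. Krt8 rose 3.98-fold and Krt18 5.54-fold, from at most 12 and 8 to at least 17 and 16 counts per library, while Epcam had at most 7 and Cdh1 at most 21 counts. The part of any of these in the results on glypicans and syndecans was not tested. In RNA from whole cultures, fewer cells that express a gene and less RNA per cell cannot be told apart.

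Levels of different genes were compared as CPM per kilobase of merged exon. In untreated SV-LECs Sdc4 was the highest member, at 128 ± 4.36 CPM per kilobase (SD, n = 4), which exceeded the level of 98.2% of the genes tested. Gpc3 followed at 92.3 ± 4.80, Sdc2 at 46.8 ± 1.35, Sdc1 at 41.6 ± 2.00 and Gpc4 at 39.0 ± 0.58 CPM per kilobase. The ranges of Sdc1 and Gpc4 overlapped, although Sdc1 was above Gpc4 in all 4 libraries. Much lower were Gpc1 at 7.30 ± 0.71, Gpc2 at 1.62 ± 0.28, Gpc6 at 0.99 ± 0.22 and Sdc3 at 0.40 ± 0.065 CPM per kilobase, and the ranges of Gpc2 and Gpc6 overlapped. The level of Gpc2 may be understated in both groups, since another annotated gene shares 55.6% of its exon bases. Sdc3 thus exceeded only 10.5% of the genes tested. Gpc5, a glypican with known expression in the nervous system and kidney, had 0 counts in every library, which allows at most 0.162 CPM in any of them and covers counting error only.

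After TGFβ1 the order was Sdc4 at 106 ± 2.01, Sdc1 at 92.1 ± 3.12, Gpc4 at 68.2 ± 2.73 and Sdc2 at 39.6 ± 0.90 CPM per kilobase. Gpc3, at 6.60 ± 0.48, was now close to Gpc1 at 5.66 ± 0.36 and Sdc3 at 5.07 ± 0.35 CPM per kilobase, and the range of Gpc1 overlapped those of both. Gpc2 at 2.40 ± 0.34 and Gpc6 at 2.10 ± 0.094 CPM per kilobase also overlapped. By their percentile among the genes tested, Gpc3 moved from 97.0 to 51.3, Gpc4 from 90.6 to 95.5, Sdc1 from 91.3 to 97.0 and Sdc3 from 10.5 to 44.7. These orders depend in places on the length assigned to a gene. With the longest annotated transcript as the length, Sdc1 stood above Sdc2 in untreated libraries (50.2 against 46.8 CPM per kilobase), and above Sdc4 (111 against 110) and Gpc6 above Gpc2 in treated ones.

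**Figure D2:**
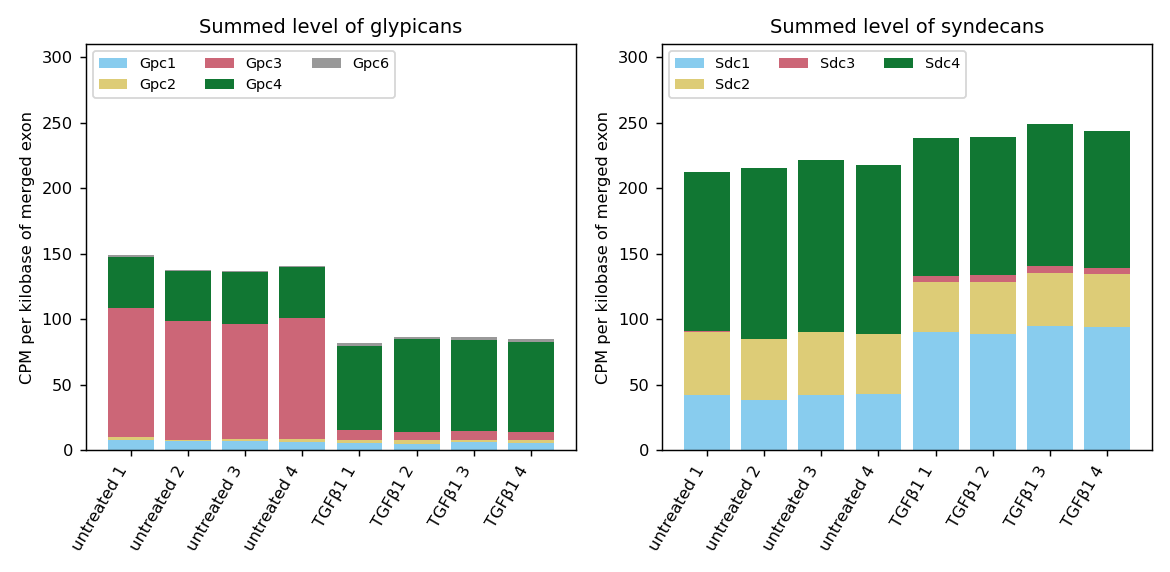
Stacked bars show the level of each glypican (left) and syndecan (right) in CPM per kilobase of merged exon in the 4 untreated and 4 TGFβ1-treated libraries, with the height of a bar as the sum of the family. The Gpc3 segment makes up 63.9% to 66.2% of the glypican bars in untreated libraries and 7.08% to 8.57% in treated ones, where the Gpc4 segment takes 78.7% to 81.2%.

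Gpc3, a glypican that is abundant in embryonic tissues and known to restrain hedgehog signalling, is on chromosome X of GRCm38 from 52272426 to 52613950 on the minus strand (ENSMUSG00000055653). The untreated libraries held 265.4, 242.6, 235.1 and 249.6 CPM of Gpc3 and the TGFβ1-treated libraries 18.8, 17.1, 18.8 and 16.2 CPM. Every treated library was thus at least 12.5-fold below the lowest untreated library. The log2 fold change was -3.81 (standard error 0.062), a 14.0-fold lower level. The annotated antisense transcripts Gm14582 and A630012P03Rik, which lie across Gpc3 without sharing exon bases with it, had at most 1 count in any library.

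Gpc4, the other glypican on chromosome X (52053021 to 52165252, minus strand, ENSMUSG00000031119), lies 107.2 kb from Gpc3 on the same strand with no protein-coding gene between them. Its level was 103.3, 101.5, 105.3 and 103.1 CPM in untreated and 170.2, 186.4, 183.4 and 183.4 CPM in treated libraries. All treated libraries were above all untreated ones, in the opposite direction to its neighbour, with a log2 fold change of 0.81 (standard error 0.043). The ratio of Gpc3 to Gpc4, in CPM per kilobase, was between 2.20 and 2.53 in untreated libraries and between 0.0872 and 0.109 in treated ones. Gpc4 is known as a modulator of WNT and FGF signals in development. The untreated libraries agreed closely in Gpc4, with a coefficient of variation of 1.49%.

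**Figure D3:**
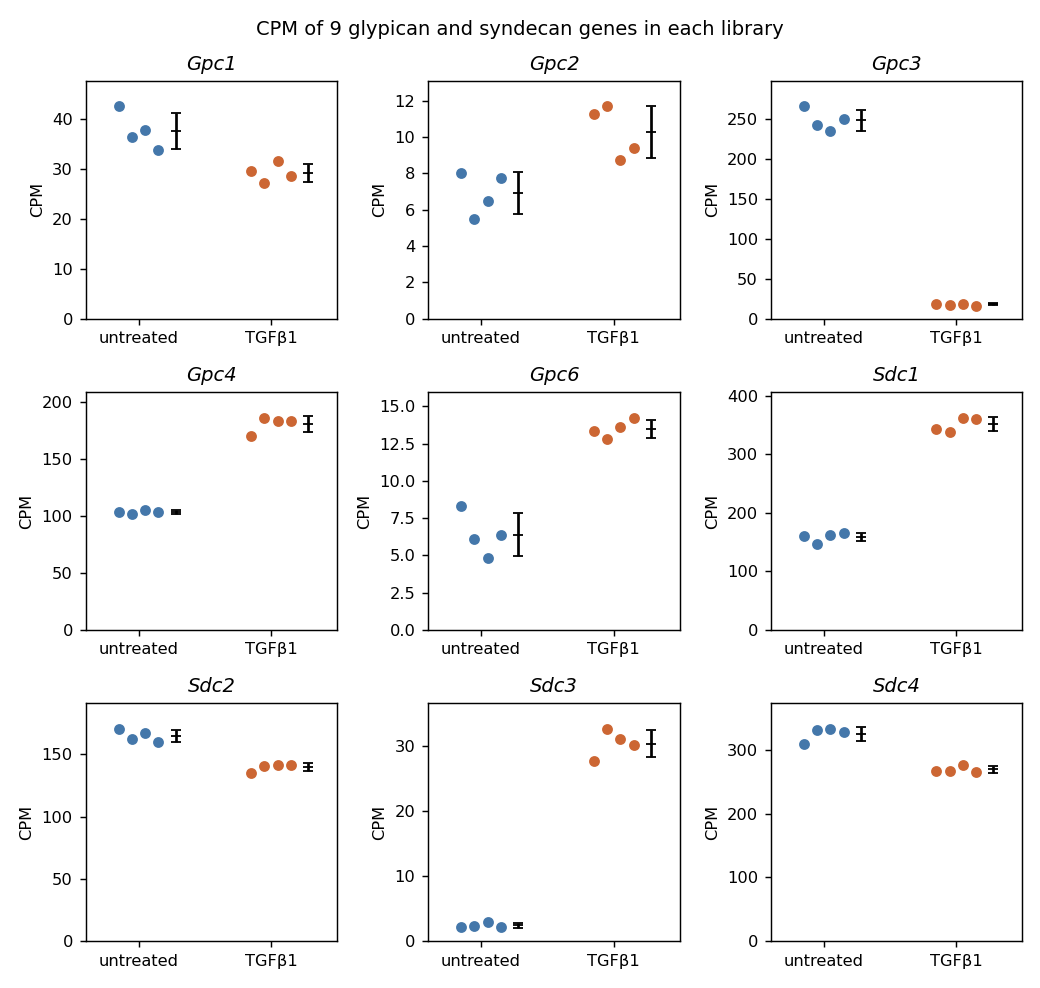
CPM of the 9 expressed members is shown for each of the 4 untreated (blue) and 4 TGFβ1-treated (orange) libraries, with a black bar for mean and SD and every vertical axis starting at 0. Gpc3 drops from 235.1 or more to 18.8 or less, Sdc3 rises from 2.97 or less to 27.6 or more, and in each panel the groups do not overlap.

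Gpc6, which belongs with Gpc4 to the same branch of the family, rose from a low level. It lies on chromosome 14 from 116925315 to 117976544 on the plus strand (ENSMUSG00000058571), 400.1 kb from the undetected Gpc5. Gpc6 was at 8.29, 6.08, 4.85 and 6.34 CPM in untreated and at 13.3, 12.8, 13.6 and 14.2 CPM in treated libraries, a log2 fold change of 1.08 (standard error 0.127). Its untreated libraries were the most scattered of any member, with a coefficient of variation of 22.3%, and the first of them was highest. Without that library the log2 fold change was 1.23. Without untreated replicate 3, the lowest of them, it was 0.97.

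Gpc2, a glypican known from developing neurons and neuroblastoma, is on chromosome 5 from 138273655 to 138280005 (minus strand, ENSMUSG00000029510). It was at 8.00, 5.48, 6.46 and 7.76 CPM in untreated and at 11.2, 11.7, 8.71 and 9.39 CPM in treated libraries. The highest untreated and the lowest treated library differed by a factor of only 1.09, and the log2 fold change was 0.57 (standard error 0.137). The annotated gene Gm43720 shares 55.6% of the exon bases of Gpc2 on the same strand and was at 0 counts in every library. How reads on these shared exons were counted is not given in the sources used here, and if they were left out, the level of Gpc2 per kilobase and its place beside Gpc6 would be too low.

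Gpc1, the glypican known for its role in FGF2 and VEGF signalling of endothelial cells, is on chromosome 1 from 92831645 to 92860779 (plus strand, ENSMUSG00000034220). Untreated libraries held 42.5, 36.4, 37.8 and 33.8 CPM and treated libraries 29.5, 27.1, 31.5 and 28.7 CPM. The groups were apart by a factor of 1.07 at their nearest libraries, and the log2 fold change was -0.37 (standard error 0.074). On the opposite strand Ankmy1 overlaps 18.9% of the exon bases of Gpc1, and it had 7 to 21 counts per library.

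The 300 bases around the start of Gpc3 and Gpc4, from 250 before to 50 after it, are shown because these neighbours moved in opposite directions. The sequences are those of RefSeq on GRCm38.p6, read 5′ to 3′ along the strand of the gene, with every GC box (GGGCGG on either strand) in capitals.
Gpc3, chrX:52613925-52614224, minus strand: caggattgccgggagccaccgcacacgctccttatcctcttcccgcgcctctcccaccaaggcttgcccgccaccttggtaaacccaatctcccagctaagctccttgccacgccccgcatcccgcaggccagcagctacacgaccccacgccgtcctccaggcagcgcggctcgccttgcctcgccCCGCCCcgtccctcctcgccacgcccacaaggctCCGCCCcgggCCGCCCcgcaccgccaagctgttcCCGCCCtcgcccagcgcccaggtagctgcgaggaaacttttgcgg
Gpc4, chrX:52164874-52165173, minus strand: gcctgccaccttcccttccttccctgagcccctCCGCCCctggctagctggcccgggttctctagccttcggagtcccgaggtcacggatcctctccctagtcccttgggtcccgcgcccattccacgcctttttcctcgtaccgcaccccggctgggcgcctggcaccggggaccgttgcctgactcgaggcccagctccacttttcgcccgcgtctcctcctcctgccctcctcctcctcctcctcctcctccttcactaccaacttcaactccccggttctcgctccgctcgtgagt
Both windows are rich in G and C, at 70.7% for Gpc3 and 66.7% for Gpc4, against a median of 52.7% over 32851 promoter windows of the same length. Gpc3 holds 4 GC boxes and 30 CpG dinucleotides, and Gpc4 holds 1 GC box and 22 CpG dinucleotides, while the median window holds 7 CpG dinucleotides and 35.7% of windows hold a GC box. The letters of a TATA box (TATAAA), of an AP-1 site (TGANTCA) and of the SMAD box (CAGAC) are in neither window on either strand, and they are found in 13.6%, 7.81% and 49.6% of all windows. These are matches of letters in a short window and were not tested for binding.

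The intracellular tail of the 4 syndecans has conserved ends around a stretch that differs between them, and its coding sequence is shown here to let the members that rose be compared with those that did not. Each line runs from the start of the first conserved region to the last codon before the stop, from the longest coding transcript in GENCODE M21, with the conserved start (30 bases) and the C-terminal anchor for PDZ proteins (12 bases) in capitals.
Sdc1: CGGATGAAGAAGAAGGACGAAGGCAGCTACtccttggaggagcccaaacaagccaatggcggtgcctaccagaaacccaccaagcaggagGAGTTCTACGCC
Sdc2: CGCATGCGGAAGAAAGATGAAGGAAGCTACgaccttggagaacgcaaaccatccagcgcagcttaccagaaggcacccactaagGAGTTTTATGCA
Sdc3: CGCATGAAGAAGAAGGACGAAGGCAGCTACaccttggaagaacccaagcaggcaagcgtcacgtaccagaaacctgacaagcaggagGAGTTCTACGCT
Sdc4: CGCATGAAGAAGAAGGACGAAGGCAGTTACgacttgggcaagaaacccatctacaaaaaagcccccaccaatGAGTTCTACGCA
All 4 genes have the same base at 23 of the 30 capital positions at the start and at 9 of the 12 at the end, and the tails differ in length from 84 bases in Sdc4 to 102 in Sdc1. In comparisons of 1 transcript per gene within each family, the longest run of identical bases between syndecans was 29 bases, between Sdc3 and Sdc4, and between glypicans it was 17 bases, between Gpc4 and Gpc6. Both are shorter than the reads of 75 bases. Glypicans were not compared with syndecans in this way.

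Sdc3, the syndecan known mainly from neurons and muscle precursors, is on chromosome 4 from 130792537 to 130826319 (plus strand, ENSMUSG00000025743). The untreated libraries held 2.17, 2.37, 2.97 and 2.13 CPM, from 42 to 68 counts, and the treated libraries 27.6, 32.7, 31.1 and 30.2 CPM, from 511 to 777 counts. The lowest treated library was 9.31-fold above the highest untreated one, and the log2 fold change was 3.65 (standard error 0.121), a 12.5-fold rise. It remained the lowest syndecan after TGFβ1, with 2.09% ± 0.14 of the syndecan level per kilobase against 0.185% ± 0.027 before (SD, n = 4). The antisense genes Gm12970 and Gm26716, which overlap its exons, were at 0 counts in every library.

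Sdc1, the syndecan that is typical of epithelia and plasma cells, is on chromosome 12 from 8771323 to 8793715 (plus strand, ENSMUSG00000020592). It was at 160.1, 147.4, 161.9 and 164.6 CPM in untreated and at 343.2, 338.3, 362.5 and 359.4 CPM in treated libraries. The lowest treated library was 2.05-fold above the highest untreated one, with a log2 fold change of 1.15 (standard error 0.046). In CPM per kilobase the ratio of Sdc1 to Sdc4 went from between 0.297 and 0.346 to between 0.845 and 0.904, and that of Sdc1 to Sdc2 from between 0.841 and 0.951 to between 2.23 and 2.38.

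Sdc2, the syndecan most linked to mesenchymal and endothelial cells, is on chromosome 15 from 32920723 to 33034935 (plus strand, ENSMUSG00000022261). It was at 170.6, 162.2, 167.5 and 160.2 CPM in untreated and at 134.8, 140.6, 141.3 and 141.6 CPM in treated libraries. The difference was small but without overlap, with a log2 fold change of -0.24 (standard error 0.041). Sdc4, a focal adhesion component that binds protein kinase C alpha, is on chromosome 2 from 164424247 to 164443887 (minus strand, ENSMUSG00000017009). It was at 309.3, 331.6, 333.6 and 327.8 CPM in untreated and at 267.5, 267.8, 277.1 and 265.8 CPM in treated libraries, a log2 fold change of -0.27 (standard error 0.040). Sdc2 was thus 1.18-fold and Sdc4 1.21-fold lower, and the groups did not overlap in either gene.

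The start regions of Sdc1 and Sdc3, the syndecans that rose, are shown in the same way as those of the glypicans.
Sdc1, chr12:8771146-8771445, plus strand: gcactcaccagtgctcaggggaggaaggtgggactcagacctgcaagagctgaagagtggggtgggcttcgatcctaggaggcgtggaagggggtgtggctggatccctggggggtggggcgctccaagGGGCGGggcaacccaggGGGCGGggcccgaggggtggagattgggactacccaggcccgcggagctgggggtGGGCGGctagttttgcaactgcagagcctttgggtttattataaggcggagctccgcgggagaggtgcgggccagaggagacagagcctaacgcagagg
Sdc3, chr4:130792287-130792586, plus strand: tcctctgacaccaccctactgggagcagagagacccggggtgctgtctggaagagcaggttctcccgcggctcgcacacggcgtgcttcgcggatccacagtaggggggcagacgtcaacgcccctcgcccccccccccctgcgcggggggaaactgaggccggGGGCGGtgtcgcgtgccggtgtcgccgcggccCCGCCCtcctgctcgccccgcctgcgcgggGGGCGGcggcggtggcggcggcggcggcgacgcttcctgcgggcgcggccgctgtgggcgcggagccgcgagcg
Each holds 3 GC boxes. The SMAD box letters, present in 49.6% of all windows, occur once in Sdc1 and in 2 places in Sdc3. They are in none of the other windows, which are those of Gpc2 and Gpc4 (higher after TGFβ1), Gpc3 and Sdc4 (lower) and the undetected Gpc5. The letters of an E-box (CACCTG), found in 20.2% of all windows, are in none of these 7 windows on either strand. Gpc2 holds 3 and Sdc4 holds 4 GC boxes. Sdc3 has 44 CpG dinucleotides and 77.7% G and C, and Sdc1 has 14 and 66.3%. No window was in the table for Gpc1, Gpc6 and Sdc2.

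Summed per kilobase, the 6 glypicans fell from 141 ± 5.58 to 85.0 ± 2.33 and the 4 syndecans rose from 217 ± 3.90 to 243 ± 5.10 CPM per kilobase (SD, n = 4). The ratio of syndecans to glypicans was between 1.42 and 1.62 in untreated and between 2.76 and 2.91 in treated libraries, so the groups did not overlap. All 10 genes together amounted to 358 ± 3.43 CPM per kilobase in untreated and to 328 ± 6.68 in treated libraries. Without Gpc3 the glypicans went the other way, from 48.9 ± 1.23 to 78.4 ± 2.54 CPM per kilobase, mostly through Gpc4. Within the glypican sum the share of Gpc3 was 65.3% ± 0.99 before and 7.78% ± 0.69 after TGFβ1, and that of Gpc4 was 27.6% ± 1.2 and 80.3% ± 1.2. Within the syndecan sum Sdc4 went from 59.0% ± 1.3 to 43.6% ± 0.59, Sdc1 from 19.2% ± 0.87 to 38.0% ± 0.66 and Sdc2 from 21.6% ± 0.82 to 16.3% ± 0.29.

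For the 2 members with the largest and the 2 with the smallest log2 fold change, the genes with the most similar values were taken as those with the smallest root mean square distance of log2(CPM + 0.1), centred on the untreated mean, over the 8 libraries. For Gpc3 these were Ms4a2 (distance 0.16), Dlg2 (0.19) and Sh2d4a (0.20), and Ms4a2 fell from 269 ± 4.12 to 21.3 ± 2.83 CPM. For Gpc1 they were Ccdc166 (0.046), Hdac5 (0.048) and Arrb2 (0.053). For Sdc3 they were Ces2e (0.098), which rose from 23.9 ± 3.17 to 305 ± 31.8 CPM, Adgrb1 (0.12) and Abcb1a (0.12). Adgrb1 had at most 1 count in each untreated library, so its distance rests on the pseudocount of 0.1 there. Dlg2 had 4 to 7 counts in each treated library, at 0.281 ± 0.053 CPM, so the pseudocount affects its distance too. For Sdc1 they were Pcx (0.033), Cdkn1a (0.034) and Gsn (0.037). The distances describe similarity between these 8 libraries and rest mainly on the difference between the groups.

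The chains that glypicans and syndecans carry are built and edited by enzymes that were listed separately, and for these genes FDRs are those of edgeR's likelihood ratio test over all genes tested. The counts called in each list stand against 37.6% of all genes tested that were higher and 38.0% that were lower, so that passing the threshold was common in these libraries. The lists were also chosen with earlier results of these data known, so their counts and medians are descriptions only. Of 12 genes for the linker and the backbone of heparan sulfate, 11 were tested, 5 were higher and 3 lower, with a median log2 fold change of 0.25. Ext1 and Ext2 encode the partners of the chain polymerase and moved apart. Ext1 rose from 168 ± 7.14 to 342 ± 12.2 CPM (log2 fold change 1.03, standard error 0.045, FDR = 6.19e-114 from edgeR), and Ext2 fell from 197 ± 4.67 to 149 ± 4.45 CPM (a change of -0.40 on the log2 scale, with an FDR of 7.96e-22 from edgeR), with no overlap between groups in either. B4galt7, a galactosyltransferase of the linker, rose by 0.75 and Pxylp1, the phosphatase that acts on the linker xylose, fell by 0.68 on the log2 scale. Xylt2, which starts the linker on the core protein, was lower at an FDR of 0.0471 with overlapping groups, and this call was lost in 11 of 16 alternative fits. Over all 16 its FDR from edgeR or DESeq2 lay between 0.00125 and 0.167.

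Of 24 genes that sulfate, trim or cleave the chains or supply sulfate, 16 were tested, 12 were higher and 4 lower, with a median log2 fold change of 0.31. Sulf1 and Sulf2, the extracellular enzymes that remove sulfate from finished chains, both rose, Sulf1 from 45.9 ± 2.98 to 106 ± 6.51 CPM (log2 fold change 1.20) and Sulf2 from 324 ± 13.2 to 761 ± 19.0 CPM (log2 fold change 1.23, standard error 0.042, FDR = 8.09e-183 from edgeR). Glce, the epimerase that forms iduronic acid, fell by 0.61 on the log2 scale, from 232 ± 3.31 to 152 ± 7.35 CPM (FDR = 3.77e-44 from edgeR). Hs3st1, a sulfotransferase for the antithrombin-binding site, fell by 0.47, while Hs2st1 and Hs6st2 rose by 0.57 and 0.50 on the log2 scale. Hs3st6 had 0 to 4 counts in untreated and 30 to 51 in treated libraries. Its log2 fold change of 4.45 was 3.50 with a prior count of 2 and 5.21 without untreated replicate 1. Ndst2, Hs6st1 and Papss2, 3 of the higher genes, had log2 fold changes of at most 0.14 with overlapping groups and lost the call in 4, 7 and 9 of 16 alternative fits.

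**Figure D4:**
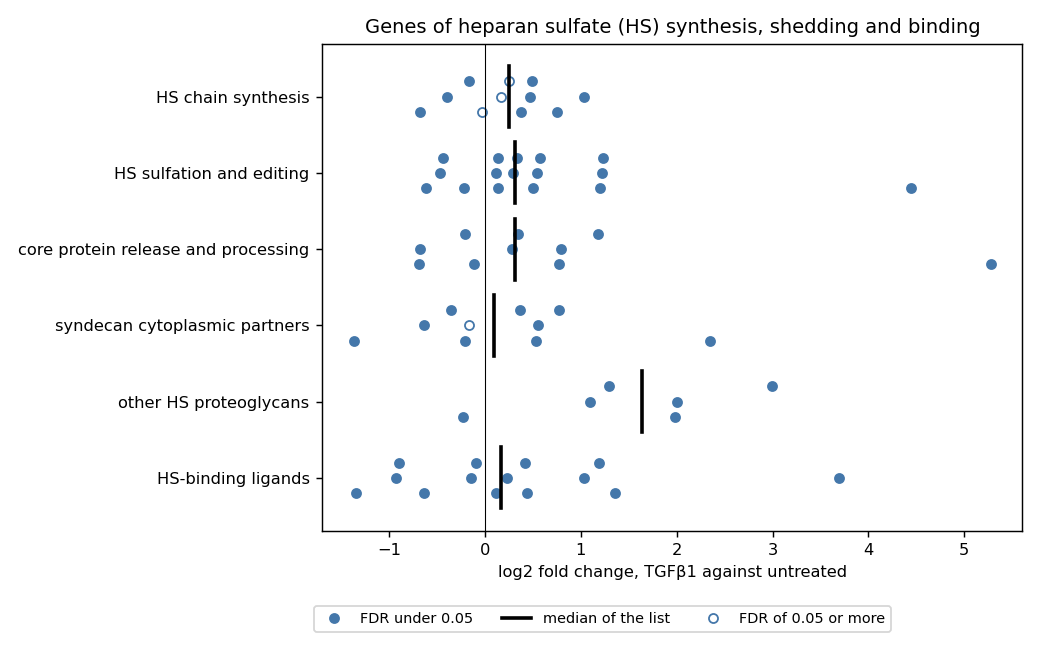
Each point is the log2 fold change of a tested gene (TGFβ1 against untreated), grouped in 6 lists around heparan sulfate (HS), with filled points for an FDR under 0.05, open points for the others and a vertical bar at the median of the list. The median is 1.64 for the other HS proteoglycans and between 0.098 and 0.31 for the other lists.

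Among 11 genes that release or process the core proteins, 10 were tested, 6 were higher and 4 lower, with a median log2 fold change of 0.31. The syndecan sheddases differed from each other. Mmp14, a membrane-bound metalloproteinase that cleaves syndecan 1, rose from 731 ± 19.2 to 1650 ± 36.7 CPM (log2 fold change 1.17, standard error 0.038, FDR = 9.40e-199 from edgeR). Mmp9 rose from 0.42 ± 0.17 to 17.0 ± 2.53 CPM, from 4 to 16 counts in untreated libraries to 286 to 419 in treated ones. Adam17 and Adam10 were slightly lower, by 0.21 and 0.12 on the log2 scale, and Timp3, the inhibitor of these proteases, rose by 0.78. Of the convertases that cleave glypican core proteins, Furin rose by 0.34, and Pcsk5 and Pcsk6 fell by 0.68 and 0.67 on the log2 scale.

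All 10 genes for proteins that bind or act at the syndecan tail were tested, 5 were higher and 4 lower, with a median log2 fold change of 0.098. Sdcbp, which encodes the PDZ protein syntenin, fell from 260 ± 12.3 to 203 ± 5.11 CPM (log2 fold change -0.35, FDR = 3.49e-15 from edgeR). Its low relative Sdcbp2 rose from 2 to 15 counts to 38 to 58 counts per library, a log2 fold change of 2.34. Ezr, the membrane and actin linker ezrin, fell from 917 ± 80.8 to 356 ± 22.0 CPM, and Cask fell by 0.64 on the log2 scale. Actn1, an actinin, rose by 0.77, Prkca, the kinase partner of syndecan 4, by 0.55 and Tiam1, an activator of RAC1, by 0.53 on the log2 scale. Gipc1 did not pass the threshold, at -0.17 on the log2 scale (FDR = 0.0798 from edgeR). It was called lower with scaling by total counts alone, and without untreated replicate 4, TGFβ1 replicate 3 or TGFβ1 replicate 4.

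Other proteins that can carry heparan sulfate were mostly higher, 5 of 6 tested with 1 lower and a median log2 fold change of 1.64. Counts per gene do not show whether Cd44 or Nrp1 carried the chains in these cells. Nrp1, a neuropilin that is modified only in part of its molecules, rose from 29.8 ± 2.08 to 238 ± 11.4 CPM (log2 fold change 3.00, standard error 0.057, likelihood ratio statistic 2653.92, with an FDR smaller than the computer can represent). Col18a1, Cd44, Hspg2 (perlecan) and Agrn (agrin) rose by 2.00, 1.99, 1.30 and 1.10 on the log2 scale. Tgfbr3, the TGFβ co-receptor betaglycan, fell from 292 ± 11.6 to 250 ± 10.1 CPM (log2 fold change -0.23, FDR = 1.32e-06 from edgeR).

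Of 19 ligands and enzymes that bind heparan sulfate, 14 were tested, 8 were higher and 6 lower, with a median log2 fold change of 0.17. Vegfc, the lymphatic growth factor, rose from 1.21 ± 0.12 to 15.8 ± 2.78 CPM (log2 fold change 3.69, standard error 0.185, FDR = 2.69e-102 from edgeR) and Hbegf from 11.2 ± 1.38 to 28.7 ± 1.22 CPM. Bmp4 fell from 26.8 ± 3.10 to 10.5 ± 0.82 CPM (log2 fold change -1.35, FDR = 2.04e-44 from edgeR). Lpl, a lipase that binds heparan sulfate, fell from 686 ± 34.9 to 362 ± 21.4 CPM. The hedgehog ligands Shh and Ihh had 0 and at most 5 counts per library. Among the listed WNT ligands, Wnt3a had at most 2 counts per library. Wnt5a rose from a mean of 110.9 to 150.1 CPM (log2 fold change 0.44). Wnt11 rose from a mean of 3.04 to 6.99 CPM (log2 fold change 1.19). Of the listed chemokines, Ccl21a had no counts, while Cxcl12 rose from a mean of 873.4 to 1162 CPM (log2 fold change 0.41). The groups did not overlap in Wnt5a, Wnt11 or Cxcl12. Fgf2, a ligand of glypican 1 and syndecan chains, was at 25.9 ± 0.89 and 30.4 ± 3.34 CPM with overlapping groups. It was higher at an FDR of 0.0061 from edgeR, and at 0.0567 it missed the threshold when libraries were scaled by total counts alone. The calls of Hgf (lower), Tfpi (higher) and Slit2 (lower) were lost in 6, 5 and 1 of 16 alternative fits.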

How the data were processed

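Poly(A) RNA of SV-LECs, untreated or treated with TGFβ1, was sequenced in 4 libraries per group with single-end reads of 75 bases. The authors mapped the reads to GRCm38, and the deposited values are raw counts of reads per gene. The submitters' processing notes list bcl2fastq 2.20.0.422, STAR 2.7.3a and featureCounts 1.5.1. The annotation release and the use of strand are not given in the sources used here.

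The likelihood ratio test was that of the study's methods, run in edgeR 4.0.16 under R 4.3.3 with glmFit and glmLRT. The filter (filterByExpr) and the scaling (TMM) were choices made here, so the number of genes tested can differ from the study's. The fit used all 8 libraries, no covariate and Benjamini-Hochberg FDRs over 13818 genes. The steps were tested on simulated data. Standard errors came from the unpenalized fit. Lengths, positions and coding ends were from GENCODE M21, which matched 55230 identifiers, and start regions from RefSeq, which held 7 of the 10 genes. Members are those named by the family symbols. In each list the 2 genes that rose most and the 2 that fell most were open to naming, with others for their known role. The members and lists were chosen with earlier results of these data known. Alternatives tried were edgeR's quasi-likelihood test, DESeq2 1.42.0, its size factors in edgeR, total counts, other filters on low counts, an FDR of 0.01, a prior count of 2, the replicate block, each library left out, and another gene length.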

Additional observations from a re-analysis of the deposited data

Results flagged for a closer look

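In 6 of 64 groups of 4 libraries, made up of the members and the list genes named by rank, the highest or lowest library lay far from the other 3 by Dixon's criterion, where chance gives about 1 in 20. Sdc2 was at 135 CPM in TGFβ1 replicate 1 and between 141 and 142 in the other treated libraries. In the same library Pxylp1 was at 28.3 CPM, against 23.0 to 23.2. TGFβ1 replicate 3 had 1590 CPM of Mmp14, against 1660 to 1670, and 108 CPM of Pcsk6, against 94.2 to 96.2. Untreated replicate 3 had 275 CPM of Tgfbr3, against 296 to 299, and untreated replicate 2 had 1.39 CPM of Vegfc, against 1.14 to 1.17.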

How the results depend on the processing

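In 16 alternative fits of the same libraries, 5 members were higher and 4 lower each time, which describes the values that were in view when the members were chosen and is no independent support. Their log2 fold changes ranged from -3.88 to -3.76 for Gpc3, from 3.58 to 3.76 for Sdc3, from 1.08 to 1.16 for Sdc1, from 0.97 to 1.23 for Gpc6 and from 0.47 to 0.64 for Gpc2. Without composition factors the median of all genes shifted by -0.067. Calls of 8 list genes (Fgf2, Hgf, Hs6st1, Ndst2, Papss2, Slit2, Tfpi and Xylt2) were lost in 1 or more fits, and the counts of the 6 lists stayed within 1.5 times those reported under every alternative. With the longest annotated transcript as the length, levels in CPM per kilobase in untreated and treated libraries were 9.01 and 7.00 for Gpc1, 112 and 8.01 for Gpc3, 1.54 and 3.25 for Gpc6, 50.2 and 111 for Sdc1, 0.484 and 6.11 for Sdc3, and 132 and 110 for Sdc4. Without composition factors they were 39.9 for Gpc4 in untreated libraries, and 38.7 for Sdc2 and 103 for Sdc4 in treated ones.

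Same-numbered libraries did not deviate together, with correlations of deviations between -0.193 and -0.0336, so the numbers were not taken as pairs. With the replicate block 5075 genes were higher and 5077 lower, against 5198 and 5251 without it, and the members gave 5 and 4 again. The levels of Gpc2, Gpc6 and Sdc3 in untreated cells rest on fewer than 200 counts per library, which limits the precision of their folds, and changes in the undetected Gpc5 could not be seen at this depth.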
